A study of Mus musculus with 12 samples.

Results

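The solute carrier family SLC25 holds the mitochondrial carriers, the proteins that move metabolites across the inner mitochondrial membrane. The members described here are all mouse genes whose symbol begins with Slc25a, pseudogenes left out, and the symbol was the only criterion. Of the 27179 genes counted, 47 met it. They were measured by polyA RNA-seq of tibialis anterior (TA) muscles from 6 male wild-type C57BL/6N mice, which had been obtained at 6 to 8 weeks of age and used within 2 weeks. In each mouse, 1 TA was electroporated with 10 μg of empty pcDNA3 plasmid (Control muscles) and the TA of the other leg with 10 μg of plasmid from which the CMV promoter drives full-length human FRAIL1, a long non-coding RNA of human skeletal muscle (FRAIL1 muscles). All 12 muscles therefore received plasmid by electroporation, and all were taken on day 7. RNA came from whole muscle, so a count sums transfected fibers, other fibers and the remaining cell types, and fewer cells of a type cannot be told apart from less RNA per cell. The CMV promoter is not restricted to fibers. FRAIL1 is a human transcript and is not among the mouse genes counted, so its level was not measured here.

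Mitochondrial carriers share a fold of 3 repeats, each of a pair of membrane-spanning helices, and most exchange 1 metabolite for another. The ADP/ATP carriers export the ATP made by oxidative phosphorylation and the phosphate carrier supplies its phosphate. The aspartate/glutamate and oxoglutarate carriers make up the malate-aspartate shuttle, which brings the reducing equivalents of glycolysis into the matrix, and the carnitine/acylcarnitine carrier brings in fatty acids. Other members carry amino acids, iron, nucleotides, coenzymes and glutathione, and some have no settled substrate. In skeletal muscle Slc25a4 (ANT1) is the known main ADP/ATP carrier, whereas Slc25a5 (ANT2) is known from many proliferating and non-muscle cells.

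Total counts lay between 45018389 and 59309210 in the Control muscles and between 44848322 and 60527385 in the FRAIL1 muscles, so counting error is small for all but the rarest members. CPM values are counts relative to library size after TMM scaling. Of the 47 members, 42 passed the filter on low counts and were tested. The 5 that did not were Slc25a2, Slc25a31, Slc25a21, Slc25a41 and Slc25a54, with 96, 29, 31, 12 and 29 counts over all 12 muscles. FRAIL1 muscle 5 stood apart from the others in several members, and values without it are given where it carries a result.

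The promoter sequences of 3 members are shown because 2 of them, Slc25a5 and Slc25a24, were the members called higher in FRAIL1 muscles, and Slc25a4 is the abundant relative of Slc25a5. Each is the 250 bases before the RefSeq start of the gene in GRCm38.p6, written 5′ to 3′ on the strand of the gene. Capitals mark GC boxes (GGGCGG, or CCGCCC where it lies on the other strand), CCAAT boxes (CCAAT) and the ETS motif (CCGGAAG). The stretches lie at chr8:46211063-46211312 (minus strand) for Slc25a4, chrX:36795347-36795596 (plus strand) for Slc25a5 and chr3:109122899-109123148 (plus strand) for Slc25a24.
Slc25a4: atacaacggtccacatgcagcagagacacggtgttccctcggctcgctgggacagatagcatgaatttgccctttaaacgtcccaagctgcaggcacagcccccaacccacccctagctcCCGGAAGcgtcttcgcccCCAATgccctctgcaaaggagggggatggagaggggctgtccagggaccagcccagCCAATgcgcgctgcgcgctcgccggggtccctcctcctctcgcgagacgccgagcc
Slc25a5: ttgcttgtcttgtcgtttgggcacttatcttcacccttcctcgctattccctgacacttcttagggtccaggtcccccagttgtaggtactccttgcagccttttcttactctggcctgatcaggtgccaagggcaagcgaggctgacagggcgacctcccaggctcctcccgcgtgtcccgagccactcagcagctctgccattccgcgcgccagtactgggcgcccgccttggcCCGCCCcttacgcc
Slc25a24: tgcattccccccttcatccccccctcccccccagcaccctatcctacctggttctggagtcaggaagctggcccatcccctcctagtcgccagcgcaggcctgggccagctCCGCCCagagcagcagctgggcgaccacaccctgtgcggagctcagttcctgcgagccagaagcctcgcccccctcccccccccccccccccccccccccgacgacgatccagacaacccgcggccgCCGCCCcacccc

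The Slc25a4 stretch held 2 CCAAT boxes and 1 ETS motif and no GC box. The Slc25a5 stretch held 1 GC box, the Slc25a24 stretch held 2, and neither held the other motifs searched. RefSeq promoters were found for 36 of the 47 members, 46 in all. A GC box on either strand was in 69.6% of these, against 32.7% of all 32851 promoters of that length. The CCAAT box was in 45.7% against 33.8%, the ETS motif in 13% against 6.91%, the TATA box (TATAAA) in 4.35% against 12.4%, and the cyclic AMP response element (TGACGTCA) in 4.35% against 1.55%. The palindromic motif of NRF1, a regulator of nuclear genes for mitochondrial proteins, was in 0 of the 46 and in 0.782% of all promoters. The motif of the estrogen-related receptors (TNAAGGTCA) was in 0 of the 46 and in 1.14% of all. Motif shares describe letters in these windows and were not tested, and overlaps between motifs were not removed.

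Levels are compared between genes per length, as CPM per kb of exon. The length joins the exons of all annotated transcripts of a gene, so it can exceed that of the mRNA in muscle. In Control muscles Slc25a4 was far above all other members, at 1802 ± 101 CPM per kb (SD, n = 6). Slc25a11, the oxoglutarate carrier, followed at 148 ± 8.75 CPM per kb, then Slc25a3, the phosphate carrier, at 106 ± 4.38, and Slc25a12, the aspartate/glutamate carrier aralar, at 83.3 ± 6.13. These neighbours were apart by more than their SDs. Slc25a5 was the fifth at 26.9 ± 1.46 CPM per kb. Slc25a39, a glutathione carrier, and Slc25a20, the carnitine/acylcarnitine carrier, came next at 19.1 ± 1.78 and 17.1 ± 2.51, and these 2 did not differ beyond their spread. Slc25a51, the NAD+ carrier, stood at 14.4 ± 0.568 CPM per kb. At the low end the members not tested lay between 0.00969 and 0.0932 CPM per kb. The summed level of all 47 members was 6529 ± 328 CPM in Control and 5799 ± 620 CPM in FRAIL1 muscles (SD, n = 6). FRAIL1 muscle 5 was lowest at 4644 CPM, and the other FRAIL1 muscles lay between 5756 and 6459 CPM. Slc25a4 took 64.9 ± 0.863% of that sum in Control and 63.4 ± 1.01% in FRAIL1 muscles.

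**Figure D1:**
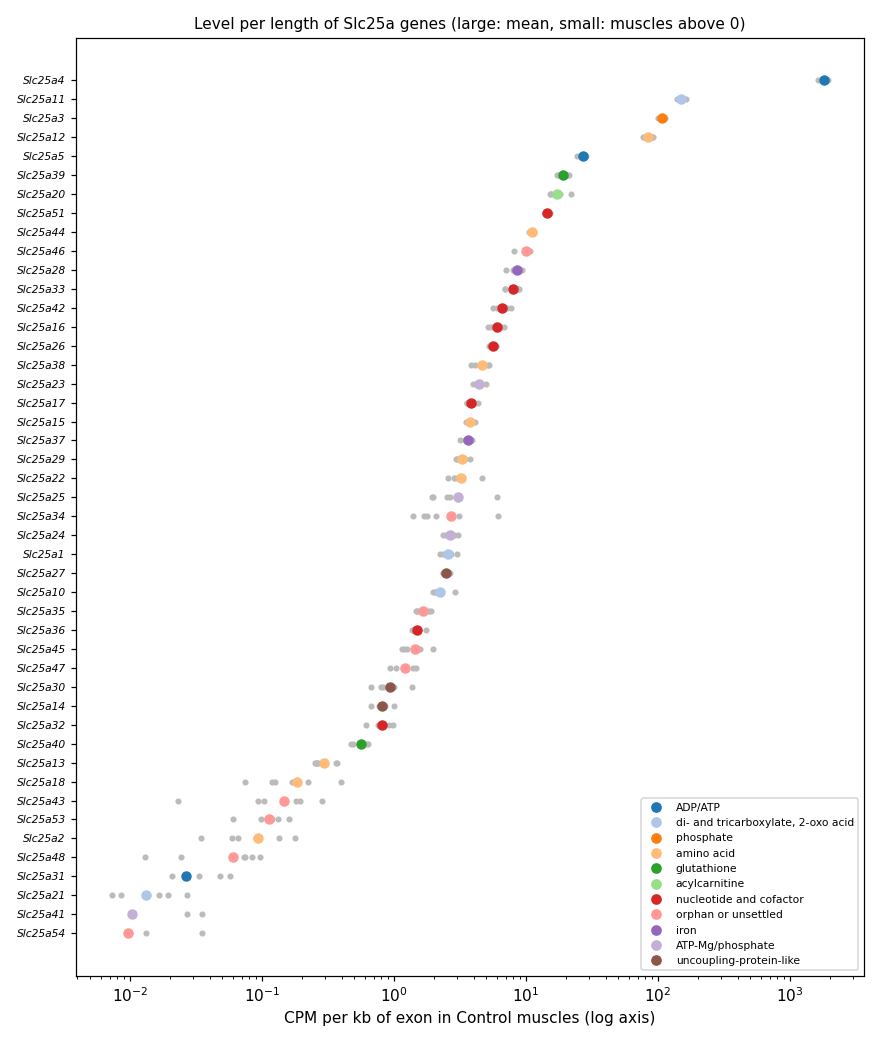
Level of the Slc25a genes in Control muscles as CPM per kb of exon (log axis), with the mean over 6 muscles as a large point coloured by substrate and each muscle above 0 as a small grey point. Slc25a4 lies at 1802 CPM per kb, Slc25a11 next at 148, and most members lie below 10.

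The question of the experiment is which muscle genes differ when FRAIL1 is expressed. Among the carriers, Slc25a5 and Slc25a24 were higher and Slc25a44 and Slc25a28 were lower in FRAIL1 muscles, 4 of 42 members tested at an adjusted p under 0.05 (edgeR's quasi-likelihood test, Benjamini-Hochberg over 15502 genes). Of all 15502 genes, 6.28% were called, with 4.43% higher and 1.85% lower. When the muscle number was added as a block, 7 of 42 members were called against 14.1% of all genes, 3 higher against 7.48% and 4 lower against 6.62%. The 3 added were Slc25a10, higher, and Slc25a15 and Slc25a51, lower. DESeq2's Wald test without the block, meant below where DESeq2 stands alone, called 3 members higher and 4 lower. Of all 15502 genes it called 1272 higher and 939 lower. The 6 FRAIL1 values lay all above the 6 Control values in Slc25a5 and Slc25a24 and all below them in Slc25a44 and Slc25a26, 4 of 42 members against 4.88% of all genes (3.12% above and 1.77% below). Fold changes were below 0 on the log2 scale for 28 of 42 members, against 48.4% of all genes, and 15 of 42 members had an unadjusted p under 0.05, against 27.7%. The median log2 fold change of the 42 was -0.077, against 0.0096 over all genes, and without FRAIL1 muscle 5 it was -0.021. Only Slc25a5 was called whichever of the 12 muscles was left out. Counts given below for single substrate groups and other lists are to be read against the shares of all genes given here.

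**Figure D2:**
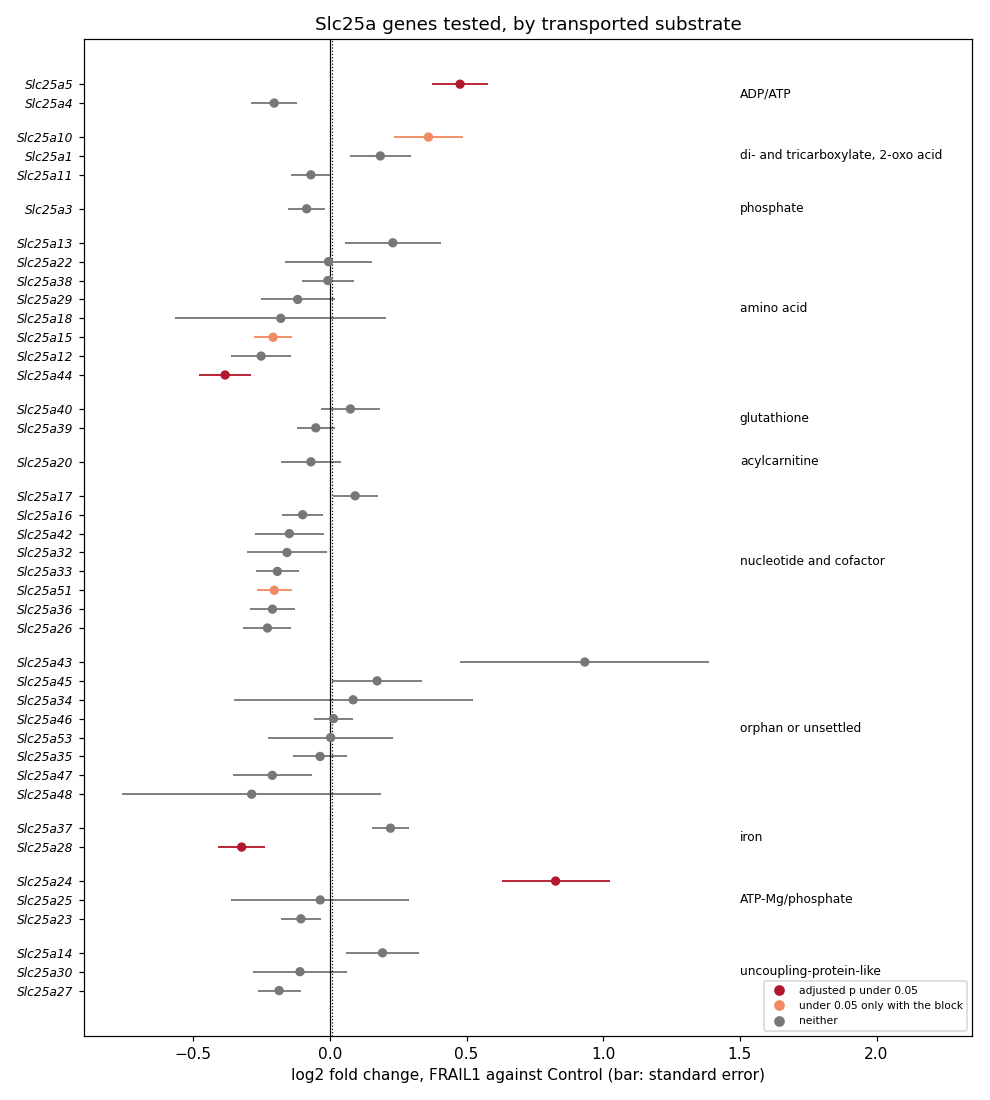
Log2 fold change of FRAIL1 against Control muscles for the Slc25a genes tested, grouped by substrate, with standard errors as bars; the solid line is 0 and the dotted line is the median of all genes, 0.0096. Dark red points (adjusted p under 0.05) are Slc25a5 at 0.48, Slc25a24 at 0.83, Slc25a44 at -0.38 and Slc25a28 at -0.32, and light red points passed in edgeR's fit to all 12 muscles when the muscle number was added as a block, but not without it.

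Among the ADP/ATP carriers, Slc25a5 was 1.39-fold higher in FRAIL1 muscles whereas the far more abundant Slc25a4 did not pass the test. Slc25a5 (chrX:36795597-36798808, plus strand, GRCm38) ranged from 40.1 to 46.7 CPM in Control muscles with a median of 45.1. It ranged from 48.7 to 82.3 CPM in FRAIL1 muscles with a median of 61.1. The groups did not overlap, and FRAIL1 muscle 5 was the highest and FRAIL1 muscle 3 the lowest of its group. The log2 fold change of Slc25a5 was 0.48 (SE 0.10, adjusted p = 0.0190). Without FRAIL1 muscle 5 it was 0.37 (adjusted p = 0.00736), and over all muscles left out in turn the adjusted p lay between 0.00576 and 0.0475. A stretch of 71.5% of the Slc25a5 transcript has a near-identical copy in the pseudogene Gm5560, so reads from it may be split or lost and its level per length is uncertain.

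Slc25a4 (chr8:46207168-46211062, minus strand) lay between 3855 and 4533 CPM in Control muscles, median 4262. In FRAIL1 muscles it lay between 2876 and 4111 CPM, median 3799. All 6 same-numbered pairs had the lower value in the FRAIL1 muscle, but the groups overlapped, since FRAIL1 muscles 3 and 6 lay above Control muscle 4. The log2 fold change was -0.20 (SE 0.084), with an adjusted p of 0.131, and 0.117 with the block. Without FRAIL1 muscle 5, the lowest of its group, it was -0.14 (adjusted p = 0.146). DESeq2 with the block called Slc25a4 (adjusted p = 0.0458). Slc25a31, the ADP/ATP carrier known from testis, had 29 counts in all and was not tested.

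Within each library the ratio of Slc25a5 to Slc25a4 does not depend on how libraries are scaled. The log2 ratio of their counts (0.5 added to each) lay between -6.68 and -6.37 in Control muscles and between -6.40 and -5.13 in FRAIL1 muscles. All 6 same-numbered pairs had the higher ratio in the FRAIL1 muscle, and only FRAIL1 muscle 3 lay within the Control range. The difference of means was 0.67 on the log2 scale (p = 0.00433, two-sided exact permutation test over 924 splits, adjusted p = 0.0152 over 7 isoform pairs). Without FRAIL1 muscle 5 the difference was 0.51 (exact permutation test, adjusted p = 0.0303). With the muscles paired by number, the exact sign-flip test cannot go below p = 0.03125, which this ratio had, and its adjusted p was 0.0729. At that floor a ratio can pass after adjustment only where most of the 7 ratios reach it.

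Slc25a3 (chr10:91116574-91124046), which imports the phosphate for ATP synthesis and also copper, lay between 554 and 621 CPM in Control muscles, median 586. In FRAIL1 muscles it lay between 476 and 616 CPM, median 558. The groups overlapped, and the log2 fold change of -0.085 (SE 0.069, adjusted p = 0.443) did not pass.

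The ATP-Mg/phosphate carriers exchange adenine nucleotides for phosphate, most of them under the control of calcium, which these bind through EF-hands. Of the 3 tested, Slc25a24 was called higher and Slc25a23 and Slc25a25 were not called. Slc25a24 (chr3:109123149-109168409) lay between 8.03 and 10.5 CPM in Control muscles, median 9.0. It lay between 11.2 and 28.6 CPM in FRAIL1 muscles, median 14.5. No FRAIL1 value was as low as any Control value, and FRAIL1 muscle 5, at 28.6 CPM, was far above the next at 16.5. On the log2 scale the difference was 0.83 (SE 0.20, adjusted p = 0.0320), or 1.77-fold. Without FRAIL1 muscle 5 it was 0.58 (adjusted p = 0.00458). The call was lost without Control muscle 1, 2, 3, 5 or 6 or FRAIL1 muscle 1 or 4, where the adjusted p lay between 0.0575 and 0.0661 and the log2 fold change between 0.79 and 0.85.

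Slc25a23, the member of this group with the highest level per length, had 23.2 ± 1.87 CPM in Control and 21.6 ± 2.01 CPM in FRAIL1 muscles (SD, n = 6, adjusted p = 0.355). Slc25a25 ranged from 15.2 to 47.7 CPM in Control muscles, median 20.3, and from 15.7 to 43.6 CPM in FRAIL1 muscles, median 19.1. Its highest value in each group came from the muscle numbered 3, and the log2 fold change was -0.035 (SE 0.33, adjusted p = 0.960). The log2 ratio of Slc25a24 to Slc25a25 was higher in the FRAIL1 muscle of all 6 pairs, by 0.76 in the mean, and did not pass the exact permutation test (p = 0.126, adjusted p = 0.220). The exact sign-flip test of the pairs gave p = 0.03125, the smallest it can give, and an adjusted p of 0.0729, as for Slc25a5/Slc25a4. Slc25a41 had 12 counts and was not tested.

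**Figure D3:**
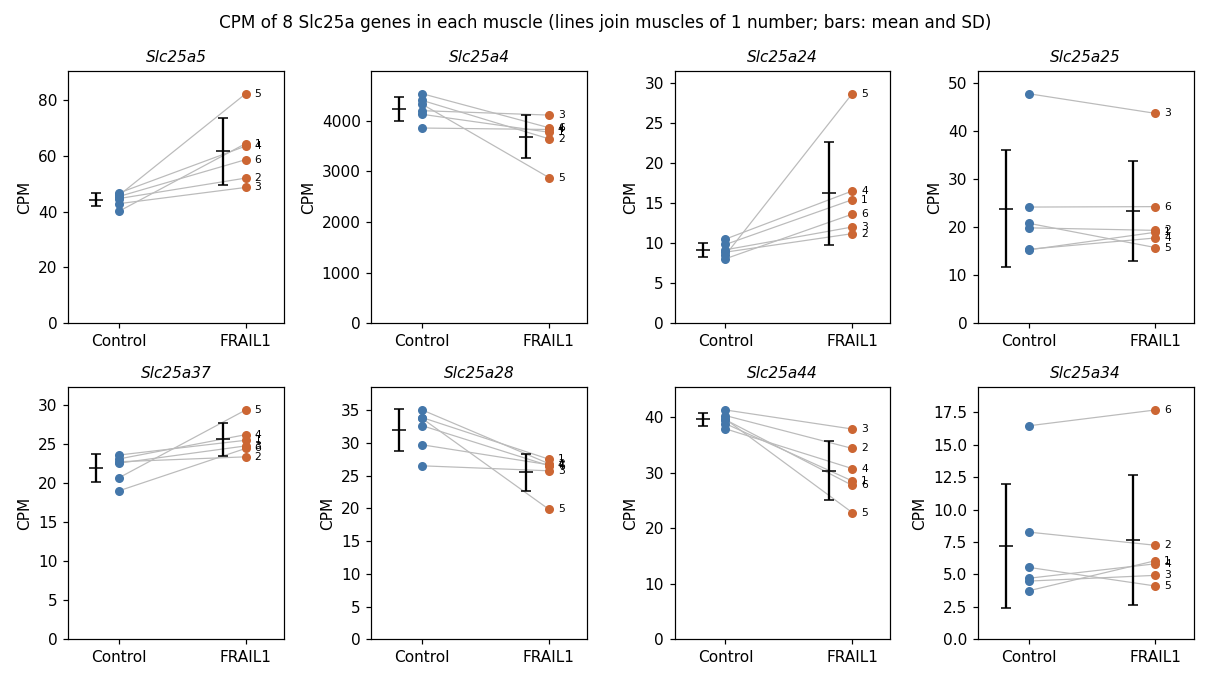
CPM of 8 Slc25a genes in each of the 12 muscles, with grey lines joining muscles of 1 number, the numbers beside the FRAIL1 points, and black bars for the mean and SD of each group. Slc25a5 and Slc25a24 show FRAIL1 points all above the Control points with muscle 5 highest, Slc25a44 shows them all below, and in Slc25a25 and Slc25a34 the muscles numbered 3 and 6 are the high ones in both groups.

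The iron carriers, the mitoferrins, bring iron into the matrix for heme and iron-sulfur cluster synthesis. Slc25a28 (mitoferrin-2), the mitoferrin of most tissues, was lower in FRAIL1 muscles, and Slc25a37 (mitoferrin-1), best known from erythroid cells, lay the other way and was not called by edgeR. Slc25a28 (chr19:43663801-43675006) ranged from 26.5 to 35.0 CPM in Control muscles, median 33.2, and from 19.9 to 27.5 CPM in FRAIL1 muscles, median 26.6. The groups overlapped through Control muscle 3, at 26.5 CPM, and FRAIL1 muscle 5 was lowest. The log2 fold change was -0.32 (SE 0.085, adjusted p = 0.0388). The call was lost without Control muscle 1, 2, 4, 5 or 6 or FRAIL1 muscle 1, 4 or 6 (adjusted p between 0.0548 and 0.0846). It was also lost without both muscles numbered 5, where the log2 fold change was -0.25 (adjusted p = 0.0544).

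Slc25a37 (chr14:69241848-69285544) lay between 19.0 and 23.6 CPM in Control and between 23.4 and 29.4 CPM in FRAIL1 muscles, with medians of 22.7 and 25.1. In 6 of 6 pairs the FRAIL1 muscle had the higher value, with a log2 fold change of 0.22 (SE 0.069, adjusted p = 0.0614, and 0.0513 with the block). It passed when FRAIL1 muscle 2 was left out (adjusted p = 0.0445) and in DESeq2's Wald test (adjusted p = 0.0401). The ratio of the mitoferrins separated the groups fully. The log2 ratio of Slc25a37 to Slc25a28 lay between -0.78 and -0.23 in Control muscles and between -0.20 and 0.56 in FRAIL1 muscles. The means were -0.54 ± 0.21 and 0.0093 ± 0.28 (SD, n = 6), a difference of 0.55 (two-sided exact permutation test, p = 0.00216, the smallest that 6 against 6 muscles allow, adjusted p = 0.0152). Without FRAIL1 muscle 5 the difference was 0.44 (exact permutation test, adjusted p = 0.0303), and the sign-flip test of the pairs again gave an adjusted p of 0.0729. The erythroid markers Hbb-bs, Hba-a1 and Alas2 were not called (0 at an unadjusted p under 0.05, 0 by DESeq2), and the summed level of the 4 erythroid markers counted lay between 12.95 and 54.8 CPM in Control and between 6.68 and 28.0 CPM in FRAIL1 muscles.

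**Figure D4:**
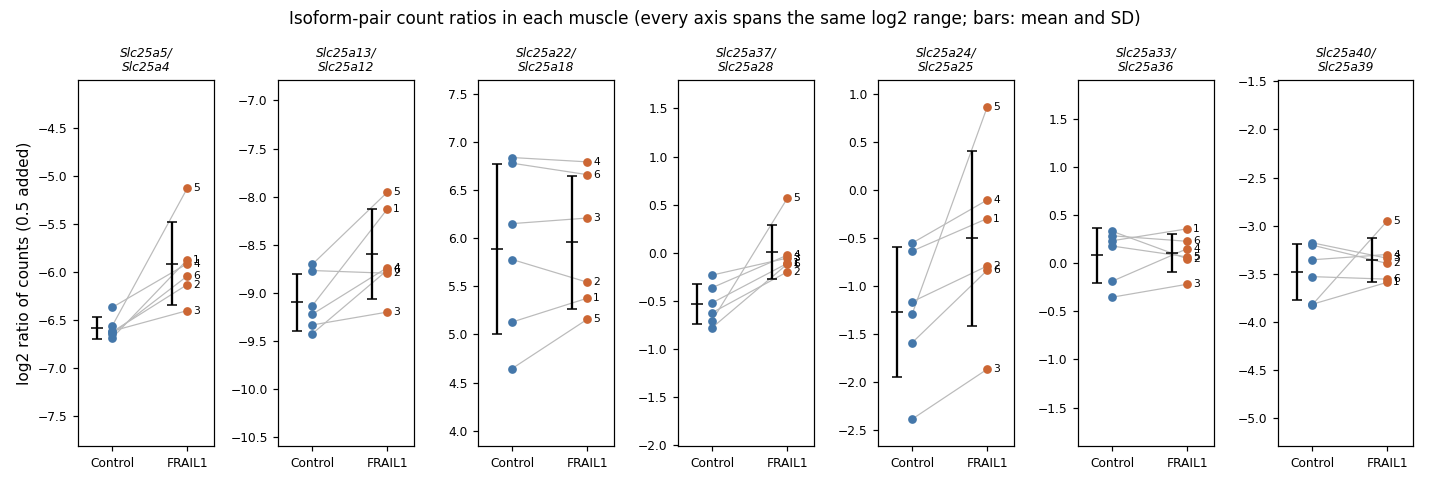
Log2 ratio of the counts of 7 pairs of related Slc25a genes in each muscle (0.5 added to each count), with lines joining muscles of 1 number and black bars for the mean and SD; every vertical axis spans the same log2 range. The Slc25a37/Slc25a28 ratios of the 6 FRAIL1 muscles all lie above those of the Control muscles, and the Slc25a5/Slc25a4 ratios do so except for FRAIL1 muscle 3.

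Of the 8 amino acid carriers tested, 1 was called lower (2 with the block, 2 by DESeq2), 0 higher (edgeR with or without the block, DESeq2), 3 had an unadjusted p under 0.05, and 7 had a log2 fold change below 0. Over all genes 1.85% were called lower (6.62% with the block), 27.7% had an unadjusted p under 0.05 and 48.4% were below 0. The member called without the block was Slc25a44, the carrier of branched-chain amino acids (chr3:88410494-88425141). It lay between 37.9 and 41.3 CPM in Control muscles, median 39.6, and between 22.8 and 37.9 CPM in FRAIL1 muscles, median 29.6. The Control values were tight, and FRAIL1 muscle 3, at 37.86 CPM, lay just under the lowest Control value of 37.90 CPM. Its log2 fold change was -0.38 (SE 0.094, adjusted p = 0.0304). The call was lost without Control muscle 1, 2, 3, 5 or 6 or FRAIL1 muscle 1, 4 or 6, where the adjusted p lay between 0.0532 and 0.0667. Without FRAIL1 muscle 5 the log2 fold change was -0.32 (adjusted p = 0.0190), and without FRAIL1 muscle 3 it was -0.46 (adjusted p = 0.00666).

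Slc25a15, the ornithine carrier of the urea cycle, was not called in edgeR's fit without the block but passed with it. It ranged from 19.8 to 23.0 CPM in Control and from 15.3 to 20.2 CPM in FRAIL1 muscles, with medians of 21.3 and 18.8. Each of the 6 FRAIL1 muscles lay under its same-numbered Control muscle, with a log2 fold change of -0.21 (adjusted p = 0.0769, and 0.0359 with the block). Without the block it also passed when FRAIL1 muscle 3 was left out (adjusted p = 0.0429) and in DESeq2's Wald test (adjusted p = 0.0432).

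Slc25a12, the aralar carrier of the malate-aspartate shuttle in muscle, lay between 566 and 672 CPM in Control muscles, median 597. In FRAIL1 muscles it lay between 350 and 620 CPM, median 540, and was lower in all 6 pairs. FRAIL1 muscle 5 was lowest, and the log2 fold change of -0.25 (SE 0.11) had an adjusted p of 0.148, and 0.0578 with the block. Leaving out FRAIL1 muscle 5 gave -0.16 (adjusted p = 0.170), and DESeq2 with the block called it (adjusted p = 0.0154). Its relative Slc25a13 (citrin), known mainly from liver, was near 1 CPM, at 1.118 ± 0.211 in Control and 1.31 ± 0.230 in FRAIL1 muscles (SD, n = 6). The log2 ratio of Slc25a13 to Slc25a12 differed by 0.50 without passing the exact permutation test (p = 0.0649, adjusted p = 0.152).

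The glutamate carriers were unlike in level and neither was called. Slc25a22 had a median of 17.8 CPM in Control and 17.0 CPM in FRAIL1 muscles, with the muscle numbered 6 highest in both groups, at 27.7 and 26.8 CPM. Slc25a18 was at 0.352 ± 0.219 CPM in Control and 0.308 ± 0.110 CPM in FRAIL1 muscles (SD, n = 6, adjusted p = 0.798). Their log2 ratio differed by 0.070 (exact permutation test, p = 0.874, adjusted p = 0.883). Slc25a38, the glycine carrier of heme synthesis, and Slc25a29, a carrier of basic amino acids, had log2 fold changes of -0.0073 and -0.12 (adjusted p = 0.971 and 0.606). Slc25a2, an ornithine carrier, had 96 counts and was not tested.

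Of the 3 carriers of dicarboxylates, tricarboxylates and oxo acids tested, 0 were called without the block (edgeR), 1 had an unadjusted p under 0.05, and DESeq2 called 0. With the block, Slc25a10, the dicarboxylate carrier that exchanges malate or succinate for phosphate, was called higher. It lay between 6.80 and 10.1 CPM in Control muscles, median 7.23, and between 7.99 and 13.2 CPM in FRAIL1 muscles, median 9.37. All 6 FRAIL1 muscles exceeded their same-numbered Control muscles, and the groups overlapped through Control muscle 5, the highest of its group. Its log2 fold change was 0.36 (SE 0.13, adjusted p = 0.0854, and 0.0176 with the block). In fits without the block it passed when Control muscle 5 was left out (adjusted p = 0.0486) and when both muscles numbered 5 were left out (adjusted p = 0.0306). The gene Gm11788 overlaps 6.6% of its exons.

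Slc25a11, the oxoglutarate carrier of the malate-aspartate shuttle, was at 314 ± 18.6 CPM in Control and 299.6 ± 30.4 CPM in FRAIL1 muscles (SD, n = 6), with -0.069 as log2 fold change (adjusted p = 0.569). Slc25a1, the citrate carrier that supplies cytosolic fatty acid synthesis, had a log2 fold change of 0.18 (adjusted p = 0.290). Slc25a21, the oxoadipate carrier, had 31 counts and was not tested.

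Among the 9 carriers of nucleotides and coenzymes, 8 had a log2 fold change below 0 and 5 had an unadjusted p under 0.05, but 0 were called in edgeR's test without the block, and DESeq2 called 1. Over all genes 48.4% were below 0 and 27.7% had an unadjusted p under 0.05. Slc25a51, which brings NAD+ into the matrix, lay between 76.1 and 84.0 CPM in Control muscles, median 78.1. It lay between 58.6 and 78.8 CPM in FRAIL1 muscles, median 68.4, and was lower in all 6 pairs. The log2 fold change was -0.20 (SE 0.064, adjusted p = 0.0662), and it was called with the block (adjusted p = 0.0368), without FRAIL1 muscle 3 (adjusted p = 0.0207) and by DESeq2 (adjusted p = 0.0262).

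Slc25a26, which imports the methyl donor S-adenosylmethionine, lay between 25.0 and 28.4 CPM in Control and between 16.6 and 24.9 CPM in FRAIL1 muscles, with medians of 26.8 and 24. All FRAIL1 values lay below all Control values, with FRAIL1 muscle 5 far below the next, which was at 23.2 CPM. The log2 fold change of -0.23 (SE 0.088) had an adjusted p of 0.111, and 0.0607 with the block. Leaving out FRAIL1 muscle 5 gave -0.15 (adjusted p = 0.113), and DESeq2 with the block called it (adjusted p = 0.0469). The pyrimidine nucleotide carriers Slc25a33 and Slc25a36 were lower in all 6 pairs and neither passed, with log2 fold changes of -0.19 (adjusted p = 0.133) and -0.21 (adjusted p = 0.117). Without FRAIL1 muscle 3, Slc25a36 had an adjusted p of 0.04996 and just passed. The ratio of the pair differed by 0.023 on the log2 scale (exact permutation test, adjusted p = 0.883). Exons of Slc25a33 are overlapped by Gm13068 over 14.9% of their length.

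Further coenzyme carriers lay close to 0. Slc25a42, a coenzyme A carrier, had a log2 fold change of -0.15 (adjusted p = 0.475). Slc25a16, linked to coenzyme A import, and Slc25a32, linked to folate and FAD, were at -0.100 and -0.16 (adjusted p = 0.415 and 0.517). Slc25a17, a carrier of the peroxisome rather than the mitochondrion, was the only member of the group above 0, at 0.093 (adjusted p = 0.487).

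The carriers of fatty acids and glutathione were not called. Slc25a20, which exchanges acylcarnitine for carnitine, ranged from 74.0 to 105 CPM in Control and from 63.3 to 98.1 CPM in FRAIL1 muscles, with medians of 77.6 and 79.7 and an adjusted p of 0.722. Slc25a39 had medians of 52.4 and 51.8 CPM (adjusted p = 0.668) and its relative Slc25a40 medians of 4.83 and 4.97 CPM (adjusted p = 0.688). The log2 ratio of Slc25a40 to Slc25a39 differed by 0.13 (exact permutation test, p = 0.392, adjusted p = 0.549).

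Of the 3 members related to uncoupling proteins, 0 were called, with 1 at an unadjusted p under 0.05 and 0 called by DESeq2. Slc25a27 ranged from 9.24 to 10.4 CPM in Control and from 7.24 to 9.49 CPM in FRAIL1 muscles, with medians of 9.83 and 8.79, with the FRAIL1 value below its partner in all 6 pairs (log2 fold change -0.19, adjusted p = 0.141). Slc25a14 and Slc25a30 had log2 fold changes of 0.19 and -0.11 (adjusted p = 0.361 and 0.719).

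The 8 members tested that have no settled substrate or another role split into 5 above and 3 below 0, and 0 were called, with 0 at an unadjusted p under 0.05 and 0 called by DESeq2. Slc25a46, an outer membrane protein linked to mitochondrial dynamics, had the highest level per length among them, with 54.0 ± 5.03 CPM in Control and 54.5 ± 3.88 CPM in FRAIL1 muscles (SD, n = 6, adjusted p = 0.924). Slc25a43 had the largest log2 fold change of any member tested, 0.93 (SE 0.46), at 0.260 ± 0.164 CPM in Control and 0.502 ± 0.247 CPM in FRAIL1 muscles (SD, n = 6), and did not pass (adjusted p = 0.196). Slc25a34, named here after its values were seen, lay between 3.74 and 8.26 CPM in 5 Control muscles and between 4.11 and 7.25 CPM in 5 FRAIL1 muscles. The muscles numbered 6 stood at 16.5 and 17.7 CPM, and the log2 fold change was 0.085 (SE 0.44, adjusted p = 0.924). Slc25a35, Slc25a45, Slc25a47, Slc25a48 and Slc25a53 had log2 fold changes between -0.29 and 0.17 and adjusted p from 0.364 to 0.995. Slc25a35 shares 31.3% of its exon length with Rangrf.

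**Figure D5:**
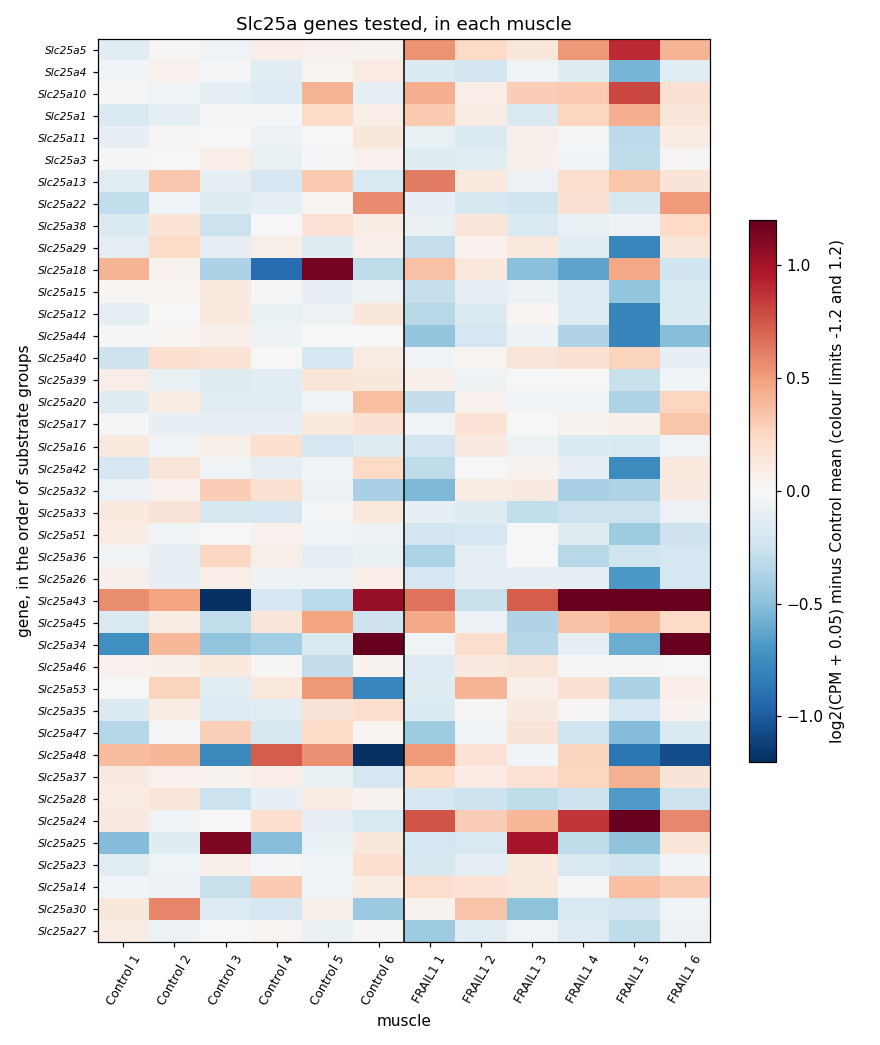
Difference of each muscle from the Control mean, as log2(CPM + 0.05), for the Slc25a genes tested, in the order of the substrate groups, with colour limits at -1.2 and 1.2. FRAIL1 muscle 5 has the highest values of Slc25a5 and Slc25a24 and the lowest of Slc25a44, and the muscles numbered 3 and 6 share their high values of Slc25a25 and Slc25a34 across both groups.

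Family members with other symbols were read from the same test. The uncoupling proteins Ucp2 and Ucp3 and the carrier homologues Mtch1 and Mtch2, which sit in the outer membrane, were tested, and 0 of the 4 were called without the block, with 1 at an unadjusted p under 0.05 and 0 called by DESeq2. Ucp2, the uncoupling protein known from macrophages and many other cells, had medians of 48.9 CPM in Control and 61.2 CPM in FRAIL1 muscles, with a log2 fold change of 0.44 (adjusted p = 0.181, and 0.0232 with the block). Mtch1 had medians of 75.9 and 83.5 CPM, with a log2 fold change of 0.29 (adjusted p = 0.141, and 0.0395 with the block). Ucp3, the uncoupling protein of skeletal muscle, had a log2 fold change of -0.11 (adjusted p = 0.652).

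The carriers reach the inner membrane through the TOM complex, the small TIM chaperones and the TIM22 complex. Of 16 genes of this route, 0 were called by edgeR with or without the block or by DESeq2, 4 had an unadjusted p under 0.05, and the median log2 fold change was 0.058. Among 26 other genes of mitochondrial transport, 2 were called higher and 0 lower (4.43% and 1.85% of all genes). Of those called, Sfxn3, a sideroflexin linked to serine transport, ranged from 27.9 to 32.3 CPM in Control and from 33.3 to 42.2 CPM in FRAIL1 muscles, 0.31 higher on the log2 scale (SE 0.064, adjusted p = 0.0151). With the block, 4 were higher and 2 lower (7.48% and 6.62% of all genes). The 4 that joined were the uniporter regulator Micu2 (0.24, adjusted p = 0.0274) and the sodium/calcium exchanger Slc8b1 (0.28, adjusted p = 0.0168), both higher, and the pyruvate carrier subunit Mpc1 (-0.27, adjusted p = 0.0315) and the ABC transporter Abcb10 (-0.20, adjusted p = 0.0334), both lower, with log2 fold changes from the fit without the block.

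Partners of the carriers in energy exchange were also read. Over all genes 6.28% were called, 14.1% with the block, and 27.7% had an unadjusted p under 0.05. Of 8 creatine and adenylate kinases, Ckm, the creatine kinase of the fiber cytosol, was called lower (log2 fold change -0.38, adjusted p = 0.0482), and Ckb was called higher with the block (0.38, adjusted p = 0.0923, and 0.0429 with it) and in 1 of the 12 fits that left out 1 muscle (adjusted p = 0.0158). Of 6 enzymes of the malate-aspartate and glycerol phosphate shuttles, Gpd2, the mitochondrial glycerol phosphate dehydrogenase, was called lower, with medians of 239 CPM in Control and 163 CPM in FRAIL1 muscles (log2 fold change -0.55, SE 0.15, adjusted p = 0.0464), and the other 5 were below 0 without passing. Ckm and Gpd2 were each called in 3 of the 12 fits that left out 1 muscle, those without FRAIL1 muscle 2, 3 or 5. In the other fits the adjusted p reached up to 0.0912 for Ckm and 0.0930 for Gpd2. The 15 nuclear genes of ATP synthase held 0 calls by edgeR with or without the block or by DESeq2 without it, and 0 at an unadjusted p under 0.05. Their median log2 fold change was -0.050, and Atp5c1 passed in 1 of 22 alternative fits. The 13 mRNAs of the mitochondrial genome held 0 calls without the block, 7 lower with it and 7 lower by DESeq2, with 12 at an unadjusted p under 0.05 and a median log2 fold change of -0.45. The 7 called with the block were ND1, ND2, ND4, ND5, ND6, CYTB and COX1, with Control means from 2239 to 42210 CPM. The others, ND3, ND4L, COX2, COX3, ATP6 and ATP8, had Control means from 0.947 to 13.1 CPM. Few reads were counted for these, and the cause was not tested.

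Summed levels of cell type markers were read in the same muscles. The counts of markers called stand against 6.28% of all genes, 14.1% with the block, and 27.7% at an unadjusted p under 0.05. The summed level of 5 macrophage markers ranged from 104 to 160 CPM in Control and from 133 to 288 CPM in FRAIL1 muscles, with 0 of 5 called without the block (4 at an unadjusted p under 0.05, 4 higher by DESeq2) and 3 of 5 higher with it. The 5 fibroblast markers summed to between 471 and 876 CPM in Control and between 874 and 2308 CPM in FRAIL1 muscles, with 0 of 5 called with or without the block (3 at an unadjusted p under 0.05, 2 higher by DESeq2). Most of this sum was Col1a1, with means of 449 CPM in Control and 927 CPM in FRAIL1 muscles, and 1969 CPM in FRAIL1 muscle 5. The fibroblast markers did not move alike. Pdgfra and Lum also had higher means in FRAIL1 muscles, Dcn was nearly level (184 and 186 CPM) and Pi16 was lower (19.5 and 17.7 CPM). FRAIL1 muscle 5, the highest in Slc25a5 and Slc25a24, held the 2308 CPM of fibroblast markers, and the next FRAIL1 muscle held 1137 CPM. The 5 myofiber markers summed to between 109300 and 133200 CPM in Control and between 76960 and 114700 CPM in FRAIL1 muscles, lowest in FRAIL1 muscle 5, with 1 of 5 called lower without the block (4 at an unadjusted p under 0.05, 4 lower by DESeq2) and 3 of 5 with it. The 5 endothelium markers summed to between 334 and 388 CPM and between 264 and 346 CPM, with 1 of 5, Tek, called lower without the block (2 at an unadjusted p under 0.05, 2 lower by DESeq2) and 2 of 5 with it. The 4 adipocyte markers tested held 0 calls (1 at an unadjusted p under 0.05, 0 by DESeq2), and the sum of all 5 was highest in Control muscle 5, at 38.3 CPM, which was also the Control muscle highest in Slc25a10 and lowest in Slc25a46. No defining marker of fibers, macrophages, fibroblasts or endothelium was at 0. The part of these markers in the differences of the carriers was not tested.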

How the data were processed

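Raw read counts of 12 TA muscles (6 Control, 6 FRAIL1) were used. According to the methods and the submitters' processing notes, the authors trimmed paired-end reads with Trimmomatic, mapped them to mm10 with STAR 2.7.8a and deposited counts of uniquely mapped reads per gene from featureCounts 2.0.1, without normalization; whether strand was used is not given in the sources used here, so reads of overlapping genes cannot be told apart. Of 27179 gene IDs, 25275 were matched to a RefSeq symbol and position (GRCm38), and the rest held 0.28% of counts. Exon lengths, overlaps and copies were taken from GENCODE M21, which gave a length for 21572 genes. Genes were filtered with filterByExpr, scaled with TMM (factors 0.935 to 1.19) and fitted in edgeR 4.0.16 (R 4.3.3; glmQLFit, robust, and glmQLFTest, its quasi-likelihood test), with Benjamini-Hochberg adjustment over 15502 genes and a threshold of 0.05. SEs are on the log2 scale and were derived as the absolute log2 fold change divided by the square root of the test's F value. Isoform ratios were tested with exact permutation tests in SciPy 1.17.1. Both fits were tested on simulated counts with known changes. These held no effect of mouse and no outlying muscle, so they do not test the pairing.

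The members, substrate groups and other lists were chosen with earlier results of these data known. The counts cover every member, and the values of 1 member and of some genes of other lists are not reported here. Values by muscle or by range follow a rule that took those called in either fit, those whose groups did not overlap, the top member per length of each substrate group, the 5 largest log2 fold changes and both genes of 7 isoform pairs, 26 members in all, plus Slc25a34. Other members are given mostly by log2 fold change or total count. Of other lists, up to 5 called genes each are named.

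The labels number the muscles 1 to 6 in both groups, and the design states that the legs of 1 mouse were compared. Deviations from group means of muscles with the same number correlated at 0.254, 0.162, 0.282, 0.263, 0.0547 and 0.185 for numbers 1 to 6 over 15502 genes (mean 0.200, against -0.0400 between different numbers), so the number was used as a block in the alternative fit, with number 5 the weakest pair. Of 720 orderings of the muscles, only the labelled 1 gave a mean that high. The main fit has no block because the study's methods state none. Alternatives were this block, other scalings and filters, DESeq2 1.42.0, a fit that was not robust, and muscles left out. Copies were searched with BLAST 2.17.0 at 98% identity over 100 bases.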

Additional observations from a re-analysis of the deposited data

Results flagged for a closer look

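In each set of 6 muscles of 1 group, for the 26 members taken by the rule for values by muscle, for Slc25a34 and for the 7 isoform ratios (further members were not examined in this way), the highest or lowest muscle was compared with the nearest of the others (Dixon's ratio). Of 68 sets, 11 held such a muscle. For a set chosen beforehand chance marks about 1 in 20. Slc25a34 was added after its values were seen, other members were taken by their values, and the ratios share genes with the members. The count of 11 can therefore not be set against that rate. FRAIL1 muscle 5 was the one in 4 of the 11. It was low in Slc25a28 (19.86 CPM, others 25.8 to 27.5) and in Slc25a26 (16.55 CPM, others 23.2 to 24.9), and high in Slc25a24 (28.61 CPM, others 11.2 to 16.5) and in the log2 ratio of Slc25a37 to Slc25a28 (0.5647, others -0.20 to -0.025). Control muscle 5 was low in Slc25a46 (44.03 CPM, others 54.3 to 58.2) and high in Slc25a10 (10.06 CPM, others 6.80 to 7.51).

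Muscles of 1 number stood out together in Slc25a25 and Slc25a34. Slc25a25 was high in Control muscle 3 (47.73 CPM, others 15.2 to 24.1) and in FRAIL1 muscle 3 (43.64 CPM, others 15.7 to 24.2). Slc25a34 was high in Control muscle 6 (16.45 CPM, others 3.74 to 8.26) and in FRAIL1 muscle 6 (17.67 CPM, others 4.11 to 7.25). Slc25a22 was high in Control muscle 6 (27.71 CPM, others 15.3 to 19.1). The cause of these values was not tested.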

How the results depend on the processing

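The muscle number as a block raised the genes called from 974 to 2186 and the members called from 4 to 7, and among the members it changed no call other than those of Slc25a10, Slc25a15 and Slc25a51. DESeq2's Wald test gave 2211 and 7, and with the block 2875 and 10. Leaving out 1 muscle gave between 364 and 2110 genes and between 1 and 7 members, fewest genes without FRAIL1 muscle 1 and most without FRAIL1 muscle 3. Other scalings, filters and a fit that was not robust kept the same 4 members called. The median log2 fold change of the members stayed below 0 in every alternative, between -0.117 and -0.021 over muscles left out. Under the exact sign-flip test of the replicate block, the ratios Slc25a5/Slc25a4 (0.668) and Slc25a37/Slc25a28 (0.547) no longer passed (adjusted p = 0.0729); 6 pairs cannot give less than p = 0.03125. The ratio Slc25a22/Slc25a18 ranged from -0.178 to 0.260 and Slc25a33/Slc25a36 from -0.0636 to 0.0881 over muscles left out. Small log2 fold changes crossed 0 without both muscles numbered 5: Slc25a39 (0.014), Slc25a46 (-0.039), Slc25a22 (0.033), Slc25a25 (0.017), Slc25a40 (-0.0051) and Slc25a18 (0.034). Upper-quartile scaling gave 0.00018 for Slc25a22. Over muscles left out, ranges crossed 0 for Slc25a20 (-0.14 to 0.011), Slc25a46 (-0.039 to 0.043), Slc25a22 (-0.13 to 0.13), Slc25a25 (-0.31 to 0.29), Slc25a34 (-0.36 to 0.51) and Slc25a18 (-0.34 to 0.17). Of 592 alternative values for named members, 524 kept their direction and side of the threshold, 18 newly passed, 24 no longer passed and 26 changed sign. By definition only the 4 members called in the main fit could stop passing. Members not called there make up most of the 524. Of 22 alternatives, Slc25a5 passed in 22, Slc25a24 in 15, Slc25a44 in 14 and Slc25a28 in 13. The causes were not tested. Members under about 1 CPM have few counts, and their fold changes are imprecise.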
